A study of Mus musculus with 36 samples.

Results

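The comparison described here is between a palmitate-rich and an oleate-rich diet in the first of the study's xenograft experiments with VDH15 oral carcinoma cells. It rests on 8 of the 36 arrays of the series, the 4 titled PLM-Neu1 to PLM-Neu4 (palmitate) and the 4 titled OL-Neu1 to OL-Neu4 (oleate), chosen by title and diet label and not by any measured value. All 12823 genes that passed a filter on low values, of 17097 genes on the array with an unambiguous name, were read, each through the probe set with its highest mean level.

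The study measured RNA on mouse arrays, in a stromal cell fraction labelled neural fraction. The fraction came from human oral carcinomas grown orthotopically in NOD-SCIDγ (NSG) mice, which lack lymphocytes of their own. The tumours of this comparison came from the VDH15 line and carried PLKO, the non-targeting shRNA control; the shRNA sits in the human tumour cells, and no group compared here carried the shRNA against CD36. Hosts received a diet rich in palmitic acid (PA), rich in oleic acid (OA) or a control diet; the first VDH15 experiment holds 4 arrays of each. The labels give each diet group 1 biological replicate identifier and call its 4 arrays technical replicates, the age of the mice is not given in the sources used here, and whether the arrays of a group share a tumour or an RNA extract is not stated.

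Palmitate is a saturated fatty acid and oleate a monounsaturated one, and both are main components of dietary fat. Inside cells, saturated fatty acids are desaturated, stored in lipid droplets or oxidised in mitochondria, and fatty acids activate the PPAR family of nuclear receptors, which switch on genes such as Angptl4, Plin2 and Pdk4. The stroma of a carcinoma holds fibroblasts that lay down collagen, blood vessels, myeloid cells and, in nerves, Schwann cells, which ensheathe axons and after injury take part in nerve repair.

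Values are log2 intensities, so that a difference of 1 doubles the intensity, and each difference is given ± its standard error (SE) from limma's moderated fit, with an adjusted p (Benjamini-Hochberg over the 12823 genes). Array medians of all 36 arrays lay between 5.98 and 6.04 log2. The number of arrays limits the precision, and because the 4 arrays a side are labelled technical replicates of 1 biological replicate, every SE and adjusted p measures only the spread between arrays (n = 4 and 4) and says nothing of the spread between mice. The labelled neural identity of the fraction was checked against markers. Only markers that passed the filter on low values enter the medians given here, which therefore leave out the lowest members. Of those on the array, 11 of 16 Schwann cell and glial genes, 7 of 10 myelin genes and 11 of 20 neuronal genes passed. All 13 basal keratinocyte genes and 16 of 20 fibroblast genes did. Over the 8 arrays the median level was 7.23 log2 for 11 Schwann cell and glial genes, 6.66 for 7 myelin genes and 6.20 for 11 neuronal genes, against 10.9 for 13 basal keratinocyte genes and 9.90 for 16 fibroblast genes. Among defining neural markers S100b (palmitate mean 4.73, oleate mean 4.79 log2), Gfap (4.45 and 4.44), Mag (4.29 and 4.31) and Nefl (4.49 and 4.54) lay below the filter of 5.19 log2, whereas Sox10, the transcription factor of the Schwann lineage, was at 6.85 and 6.88 log2. How much of the RNA came from nerve cells cannot be read from these values, and in bulk RNA fewer cells of a type cannot be told apart from less RNA per cell. The tumours were human and the arrays mouse, and whether human RNA added to the signal of keratinocyte or other genes was not tested.

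The palmitate arrays were not alike. On the first principal component of the 12 arrays of the experiment, which held 73.5% of their variance, palmitate arrays 1 and 2 scored 58.8 and 54.3, palmitate arrays 3 and 4 scored 15.3 and 17.3, and all 8 oleate and control arrays scored between −27.0 and −13.7. Palmitate array 1 was scanned in batch 2 and array 2 in batch 3, and arrays 3 and 4 came from the same batches, so the split did not follow the scan batch. Pearson's r across genes between arrays of a group, where genes are not independent replicates, ran from 0.960 to 0.993 on palmitate and from 0.995 to 0.996 on oleate, and the median SD of a gene was 0.152 log2 among palmitate arrays and 0.0851 log2 among oleate arrays. Results are therefore given with and without palmitate arrays 1 and 2.

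**Figure D1:**
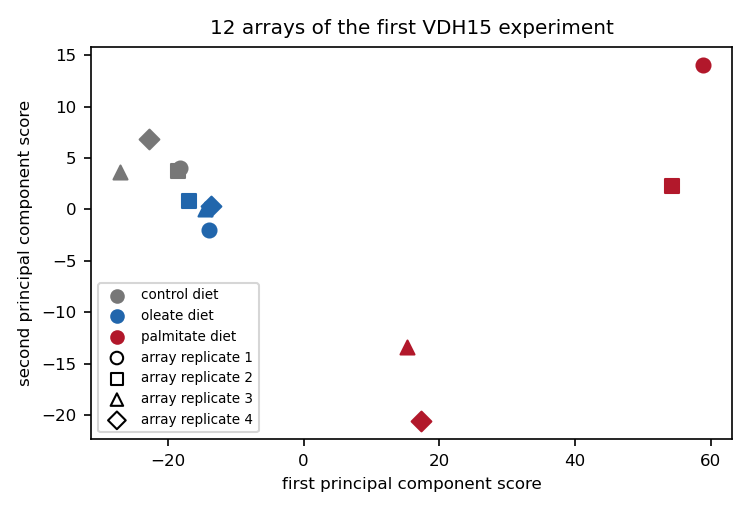
First and second principal component scores of the 12 arrays of the first VDH15 experiment (1 point per array, colour by diet, symbol by array number). All 4 palmitate arrays lie right of the oleate and control arrays, arrays 1 and 2 at 58.8 and 54.3 and arrays 3 and 4 at 15.3 and 17.3, while the oleate and control arrays lie next to each other.

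Between the palmitate and oleate diets, many stromal genes differed on these arrays. Fibroblast, collagen, matrix-remodelling, macrophage and chemokine genes led the side that was higher on palmitate, and keratinocyte differentiation and cell cycle genes were among those lower. At an adjusted p under 0.05, 2943 genes (23% of those tested) differed, 1410 of them higher (11%) and 1533 lower (12%) on palmitate than on oleate. Differences of more than 1 log2 were less even, with 425 called genes higher (3.31%) and 142 lower (1.11%) by that much. In 1383 of the genes called higher (10.8% of all tested) and 1508 of those called lower (11.8%), the 4 palmitate and 4 oleate arrays did not overlap. Called or not, 15.9% of all genes were higher and 20.5% lower on palmitate without overlap. Over all genes the median difference was −0.03 log2. The summed level of cell type marker lists moved with diet as well: the mean of the fibroblast list was 9.72 to 10.4 log2 on palmitate and 8.50 to 8.92 on oleate, that of the macrophage list 6.76 to 7.28 and 5.60 to 6.13, and that of the basal keratinocyte list 9.94 to 10.96 and 11.2 on every oleate array. The part of such shifts in the differences of other genes was not tested.

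The counts depend on single arrays and on which arrays and groups are fitted. Without palmitate array 2, 796 genes were called higher and 743 lower; without oleate array 1 the counts were 626 and 458, without oleate array 2 they were 541 and 385, without oleate array 3 they were 619 and 420, and without oleate array 4 they were 626 and 478. Without palmitate arrays 1 and 2 together, 1383 were called higher and 1670 lower, of which 1178 and 1213 were among the genes called with all 8 arrays, and none of the called genes changed sign. Within scan batch 2 and within scan batch 3, each with 2 arrays a diet, 0 genes passed by limma (2466 and 2727 had an unadjusted p under 0.05), and every called gene kept its sign in both. When the arrays of each of the 11 groups of the series were first averaged, 5 genes were called higher and 0 lower by limma (1592 genes had an unadjusted p under 0.05, against 5 called). That fit had terms for diet with shRNA and for experiment, so palmitate drew on all experiments while oleate rested on 1 group. It therefore estimates something other than the difference on the 8 arrays. The 5 called genes, read only because they were so few, were the transcription factor Prrx1, the lysyl oxidase Loxl3, the cathepsin Ctsk, the collagen VI and anthrax toxin receptor Antxr2 and the imprinted noncoding RNA Rian.

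**Figure D2:**
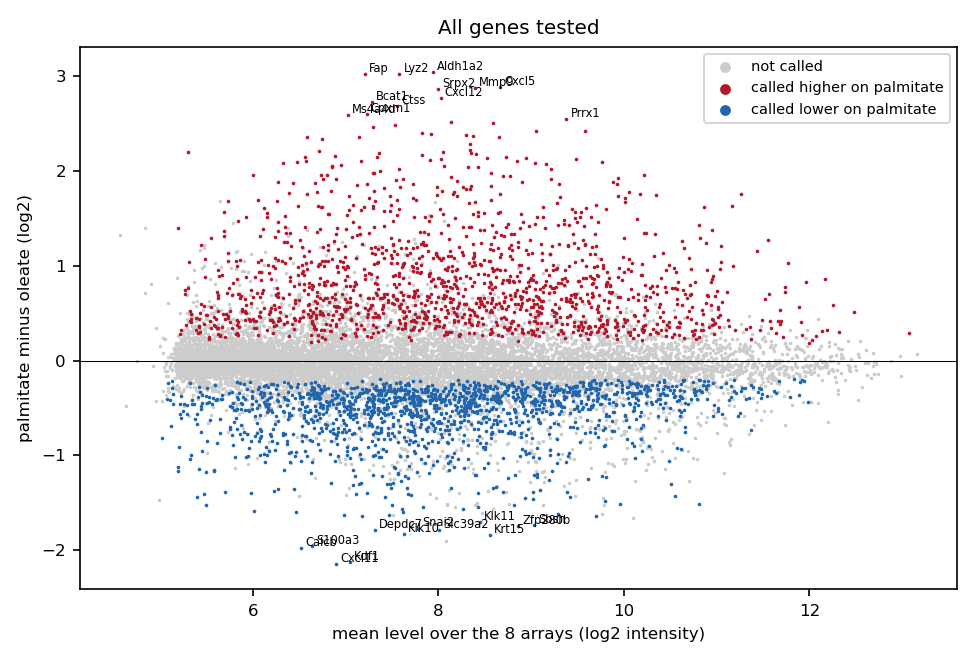
Difference palmitate minus oleate (log2) against the mean level over the 8 arrays (log2 intensity) for the 12823 genes tested, 1 point per gene. Red points are the 1410 genes called higher and blue points the 1533 called lower; the 12 genes furthest from 0 on each side among called genes without overlap are named, and the rises reach 3.05 log2 where the falls reach −2.15 log2.

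The 12 largest rises and 12 largest falls were taken among called genes whose palmitate and oleate arrays did not overlap. Several of the rises were genes of activated fibroblasts and of the matrix. Fap, a serine protease of activated fibroblasts, read 9.67, 9.54, 7.97 and 7.69 log2 on palmitate arrays 1 to 4 and 5.42, 5.71, 5.995 and 5.65 on oleate arrays 1 to 4. Palmitate arrays 1 and 2 were the highest, and even the lowest palmitate array lay more than 1 log2 above the highest oleate array. The difference was 3.02 ± 0.48 log2 (adjusted p = 0.00778; probe set 1417552_PM_at) and 2.14 log2 without palmitate arrays 1 and 2. Prrx1 (1425526_PM_a_at), a homeobox factor of mesenchymal progenitors and fibroblasts, read 11.14, 11.15, 10.004 and 10.33 on palmitate and 8.03, 8.02, 8.20 and 8.18 on oleate. The 4 oleate arrays lay within 0.2 log2 of each other, and no palmitate array came near them; the rise was 2.55 ± 0.27 log2, or 5.84-fold (adjusted p = 0.00259). Srpx2, a secreted sushi-repeat protein, rose by 2.87 ± 0.40 log2 (1427919_PM_at, adjusted p = 0.00572). The carboxypeptidase-like Cpxm1 (1448901_PM_at) had the smallest SE of the 12 and read 8.61, 8.42, 8.39 and 8.68 on palmitate and 5.82, 6.13, 5.44 and 6.31 on oleate. Its 4 palmitate arrays agreed within 0.3 log2, and the rise of 2.60 ± 0.18 log2 (adjusted p = 0.00118) was 2.61 log2 without arrays 1 and 2.

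The largest rise of the 12 was that of Aldh1a2 (1422789_PM_at), which makes retinoic acid from retinaldehyde. It read 9.79, 9.98, 9.34 and 8.75 log2 on palmitate and 6.13, 7.196, 5.62 and 6.72 on oleate, a difference of 3.05 ± 0.40 log2, or 8.27-fold (adjusted p = 0.0047). The control arrays, at 8.03, 7.50, 6.76 and 7.49, lay between both diets except that control array 3 fell inside the oleate range. Bcat1 (1450871_PM_a_at), the cytosolic aminotransferase of branched-chain amino acids, read 9.92, 9.90, 7.08 and 7.66 on palmitate and 5.78, 5.53, 5.93 and 6.44 on oleate. Here palmitate arrays 1 and 2 were more than 2 log2 above arrays 3 and 4, and the rise of 2.72 ± 0.69 log2 (adjusted p = 0.0309) was 1.46 log2 without them. Ms4a4d (1418990_PM_at), a tetraspan membrane protein, showed the same split, with a rise of 2.59 ± 0.55 log2 (adjusted p = 0.0187) and 1.56 log2 without arrays 1 and 2.

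The other 5 of the 12 are known from myeloid cells or leukocyte recruitment. Lyz2 (1439426_PM_x_at), the lysozyme of macrophages and neutrophils, read 8.97, 8.94, 9.09 and 9.37 on palmitate and 6.37, 5.30, 7.26 and 5.34 on oleate. The palmitate arrays were tight, and the spread lay on the oleate side, where array 3 stood about 2 log2 above arrays 2 and 4; the difference was 3.03 ± 0.43 log2 (adjusted p = 0.00583). Ctss (1448591_PM_at), a cathepsin of antigen-presenting cells, read 8.77, 9.38, 8.21 and 9.21 on palmitate and 7.09, 4.76, 7.09 and 5.90 on oleate and rose by 2.68 ± 0.55 log2 (adjusted p = 0.0174). Its lowest palmitate array lay above the highest oleate array by just over 1 log2. Cxcl12 (1448823_PM_at), the CXCR4 ligand made by stromal cells, read 9.47, 9.14, 9.20 and 9.83 on palmitate and 6.32, 6.53, 6.30 and 7.405 on oleate. This was a rise of 2.77 ± 0.28 log2 (adjusted p = 0.00228), which was 2.88 log2 without palmitate arrays 1 and 2. The neutrophil chemoattractant Cxcl5 (1419728_PM_at) rose by 2.89 ± 0.36 log2 (adjusted p = 0.00414) from 7.29, 6.42, 7.04 and 8.14 on oleate to 10.30, 10.33, 9.53 and 10.28 on palmitate. Mmp9 (1448291_PM_at), a gelatinase of neutrophils and macrophages, rose by 2.87 ± 0.58 log2 (adjusted p = 0.0168) and by 1.91 log2 without arrays 1 and 2.

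Genes of stratified epithelium made up much of the other end. Kdf1 (1417797_PM_a_at), which is needed for keratinocyte differentiation, read 4.33, 5.60, 6.89 and 7.12 log2 on palmitate arrays 1 to 4 and 8.12, 8.27, 8.02 and 8.03 on oleate. Palmitate array 1 was the lowest and arrays 3 and 4 were closest to the oleate arrays, and Kdf1 fell by 2.12 ± 0.58 log2 (adjusted p = 0.0384), with a difference of −1.10 log2 without arrays 1 and 2. Krt15 (1422667_PM_at), a keratin of basal epithelium, read 6.98, 7.04, 8.28 and 8.26 on palmitate and 9.28, 9.53, 9.69 and 9.41 on oleate, and fell by 1.84 ± 0.34 log2 (adjusted p = 0.0126). Klk10 (1460236_PM_at), a secreted kallikrein-related protease, read 6.26, 6.57, 6.90 and 7.11 on palmitate and 8.49, 8.47, 8.54 and 8.67 on oleate. The palmitate arrays were spread over less than 1 log2, and Klk10 fell by 1.83 ± 0.18 log2 (adjusted p = 0.00209) with all arrays, with a difference of −1.54 log2 without arrays 1 and 2. Klk11 (1419201_PM_at), its neighbour in the kallikrein cluster, fell by 1.71 ± 0.39 log2 (adjusted p = 0.0222), and Sbsn (1459897_PM_a_at), the secreted suprabasal epidermal protein suprabasin, fell by 1.74 ± 0.44 log2 (adjusted p = 0.0301). S100a3 (1421856_PM_at), a calcium-binding protein of hair cuticle, fell by 1.95 ± 0.39 log2 (adjusted p = 0.0166), and the zinc importer Slc39a2 (1443163_PM_at) by 1.78 ± 0.51 log2 (adjusted p = 0.0433).

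Outside the epithelial genes, Cxcl11 (1419697_PM_at), an interferon-induced ligand of CXCR3, had the largest fall of the 12. It read 5.32, 5.49, 6.39 and 6.08 on palmitate and 7.97, 8.03, 7.95 and 7.93 on oleate, and fell by 2.15 ± 0.23 log2, which is 4.44-fold (adjusted p = 0.00263). The 4 oleate arrays agreed within 0.1 log2 and lay more than 1 log2 above every palmitate array. Snai2 (1418673_PM_at), the E-box repressor Slug, read 6.87, 6.76, 6.91 and 7.02 on palmitate, 8.64, 8.36, 8.79 and 8.85 on oleate and 8.12, 7.77, 7.83 and 7.78 on the control diet. Its palmitate arrays spanned less than its oleate arrays, and it fell by 1.77 ± 0.11 log2 (adjusted p = 0.00118), with a difference of −1.69 log2 without palmitate arrays 1 and 2. The control arrays lay between the diets: in the fit of all 12 arrays Snai2 was 0.79 log2 higher on oleate than on control (adjusted p = 0.0255) while palmitate minus control was −0.98 log2 (adjusted p = 0.000213). Calcb (1422639_PM_at), which encodes the beta form of the neuropeptide CGRP, read 4.37, 4.55, 6.45 and 6.77 on palmitate and 7.16, 7.78, 7.34 and 7.75 on oleate and fell by 1.97 ± 0.58 log2 (adjusted p = 0.0475). Palmitate arrays 1 and 2 were near 4.5 log2, under the level of the low-value filter, and the difference was −0.90 log2 without them. Depdc7 (1424303_PM_at) fell by 1.78 ± 0.34 log2 (adjusted p = 0.0135) and the zinc finger gene Zfp280b (1460564_PM_at) by 1.74 ± 0.40 log2 (adjusted p = 0.0236).

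**Figure D3:**
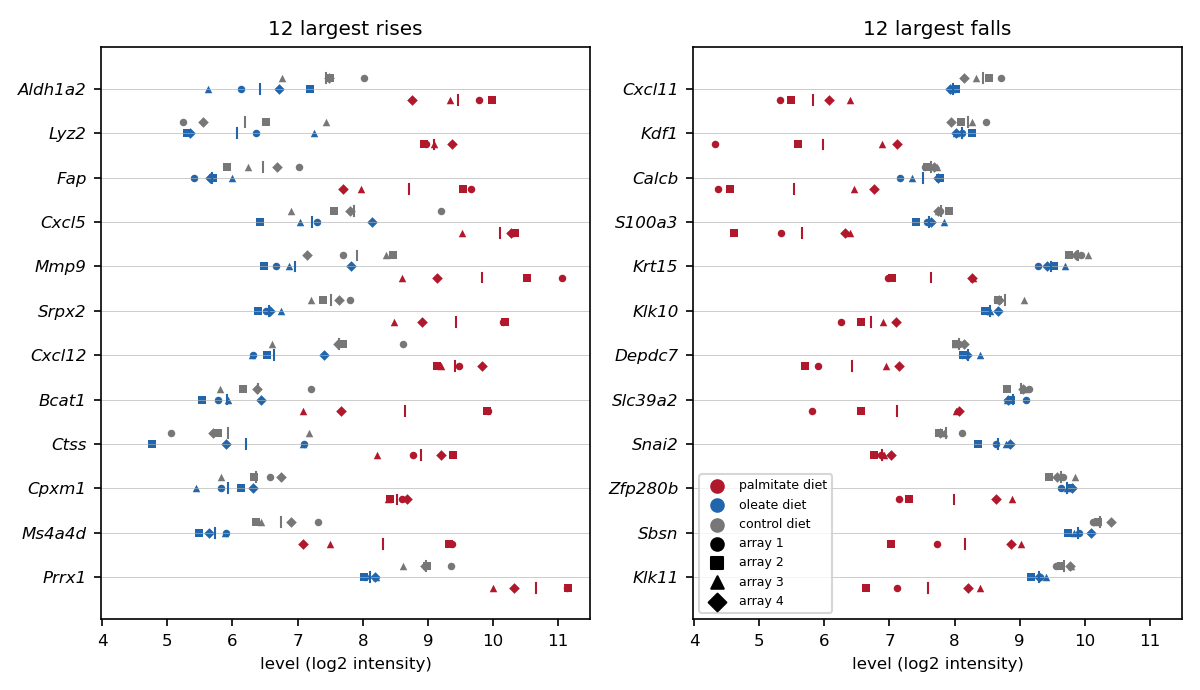
Level (log2 intensity) on each array for the 12 genes with the largest rises (left) and the 12 with the largest falls (right); colour gives the diet, the symbol the array number and the short vertical line the mean of 4 arrays. The genes were chosen among called genes without overlap, so in every row the red palmitate points lie apart from the blue oleate points. In rows such as Bcat1, Kdf1 and Calcb palmitate arrays 1 and 2 lie further out than arrays 3 and 4.

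All 24 of these genes were called without palmitate arrays 1 and 2. Without palmitate array 1, Bcat1, Calcb and Sbsn were not called, and without palmitate array 2, Bcat1, Ctss, Kdf1, Calcb, Slc39a2 and Zfp280b were not. Leaving out any 1 oleate array left 9 of the 12 rises; the falls left were 5, or 4 without oleate array 3. Bcat1, Ms4a4d, Kdf1, Calcb, S100a3, Slc39a2, Zfp280b, Sbsn and Klk11 were lost each time, Mmp9 without oleate array 1, 2 or 3, Ctss without oleate array 4 and Depdc7 without oleate array 3. With genes below the level filter kept, Kdf1, Calcb and Slc39a2 were no longer called. In the fit on group averages, Prrx1 alone of the 24 was called (adjusted p = 0.0472).

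Promoter sequence was read for 17 of the 24 genes from RefSeq (GRCm38.p6), as the 250 bases before and 50 after the annotated start. The 4 below, a pair that rose and a pair that fell, are shown as examples that carry motifs counted over all called genes. Carrying such a motif does not set them apart, since of the 17 windows only those of Lyz2, Klk10 and Slc39a2 held none. Capitals mark matches, on either strand, to the GC box GGGCGG, the E-box CAGGTG, the AP-1 motif TGANTCA or the TEAD motif CATTCC, and no TATA box (TATAAA) was found in the 4.
Prrx1, chr1:163313601-163313900, minus strand: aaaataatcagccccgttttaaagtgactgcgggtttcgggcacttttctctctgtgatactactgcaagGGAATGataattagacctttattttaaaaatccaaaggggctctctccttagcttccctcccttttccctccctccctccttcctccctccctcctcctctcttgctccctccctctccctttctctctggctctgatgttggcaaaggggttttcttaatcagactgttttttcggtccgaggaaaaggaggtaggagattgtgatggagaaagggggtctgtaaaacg
Cxcl12, chr6:117168285-117168584, plus strand: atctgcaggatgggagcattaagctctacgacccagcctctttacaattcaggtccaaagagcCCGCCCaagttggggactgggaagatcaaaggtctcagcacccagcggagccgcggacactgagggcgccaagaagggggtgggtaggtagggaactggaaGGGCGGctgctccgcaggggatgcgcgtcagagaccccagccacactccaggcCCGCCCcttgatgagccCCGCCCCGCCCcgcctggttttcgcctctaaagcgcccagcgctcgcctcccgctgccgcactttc
Sbsn, chr7:30751221-30751520, plus strand: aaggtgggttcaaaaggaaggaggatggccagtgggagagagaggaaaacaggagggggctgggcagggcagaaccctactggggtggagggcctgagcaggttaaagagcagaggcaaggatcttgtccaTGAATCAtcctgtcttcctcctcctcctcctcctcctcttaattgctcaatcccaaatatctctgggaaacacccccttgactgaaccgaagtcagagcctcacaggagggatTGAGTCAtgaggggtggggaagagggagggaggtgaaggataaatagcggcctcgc
Klk11, chr7:43774367-43774666, plus strand: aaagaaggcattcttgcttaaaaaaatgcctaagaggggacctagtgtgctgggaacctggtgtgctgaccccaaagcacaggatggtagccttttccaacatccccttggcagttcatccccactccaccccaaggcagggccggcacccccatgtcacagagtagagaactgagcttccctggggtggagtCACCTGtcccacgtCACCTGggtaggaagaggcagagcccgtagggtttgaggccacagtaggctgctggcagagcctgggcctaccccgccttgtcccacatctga
The Cxcl12 window held 5 GC boxes, the last pair sharing a base, the Klk11 window 2 E-boxes and the Sbsn window 2 AP-1 motifs, and the Prrx1 window held 1 TEAD motif and none of the others.

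Over all called genes the motif shares differed little from those of all genes tested. A promoter was matched for 1066 of the genes called higher, 1237 of those called lower and 10269 of all tested. The E-box CAGGTG, the letters bound by repressors such as Slug in other studies, was in 15.6% of promoters of genes called higher, 19.7% of genes called lower, 18.7% of all tested and 20.0% of all 27025 promoters in the reference. The AP-1 motif was in 6.1%, 5.1%, 5.5% and 7.9%, in the same order, and the TEAD motif in 14.3%, 12.1%, 12.5% and 14.6%. GC boxes were in 63.3%, 64.3%, 60.5% and 35.9%, and TATAAA in 8.6%, 7.4%, 8.2% and 14.2%. A match describes letters in the window, and no match says only that the letters are not in it. Matches were counted on both strands and overlaps between motifs were allowed.

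The 40 gene lists describe the rest of the profile. Their members were written from general knowledge, but the lists were chosen with earlier results of these data known. They are therefore described and not tested. Each is read against the 11% of all genes called higher, the 12% called lower and the median of −0.03 log2 over all genes.

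**Figure D4:**
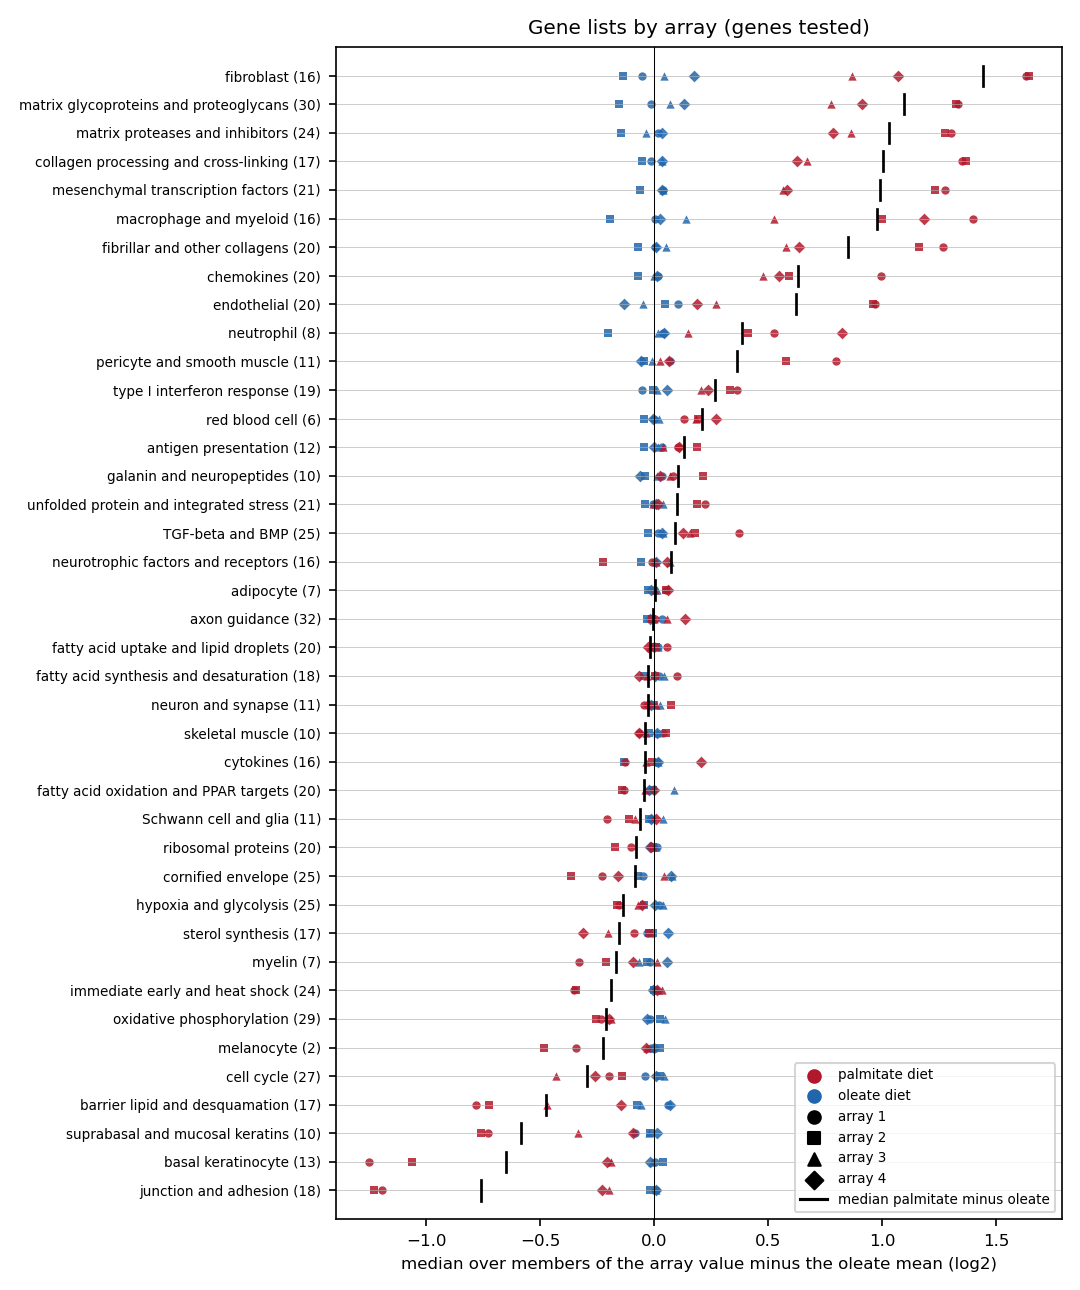
For each of 40 gene lists (number of genes tested in brackets), the median over its genes of the array value minus the oleate mean, in log2, on each of the 4 palmitate (red) and 4 oleate (blue) arrays; the black line is the median difference palmitate minus oleate. Fibroblast and matrix lists lie to the right on all 4 palmitate arrays, and for the basal keratinocyte and junction lists palmitate arrays 1 and 2 lie beyond −1 log2 where arrays 3 and 4 lie near −0.2 log2.

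Fibroblast genes were higher on palmitate nearly throughout. Of 16 tested, 15 were called higher and 0 lower, with a median difference of 1.44 log2, and 0.97 log2 without palmitate arrays 1 and 2, when 15 were again called. Lum, which encodes the collagen-binding proteoglycan lumican, read 8.90, 8.67, 8.26 and 8.51 on palmitate and 6.60, 6.09, 6.60 and 6.96 on oleate and rose by 2.03 ± 0.20 log2 (adjusted p = 0.00228). Decorin, Dcn, rose by 1.04 ± 0.10 log2 (adjusted p = 0.00223), the microfibril gene Mfap5 by 1.87 ± 0.22 log2 (adjusted p = 0.00372) and S100a4, a calcium-binding protein of motile mesenchymal cells, by 0.97 ± 0.10 log2 (adjusted p = 0.00259). The mean level of the list was 9.72 to 10.4 log2 on palmitate, 8.50 to 8.92 on oleate and 8.92 to 9.48 on control arrays, so the diets did not overlap. Pdgfra (palmitate mean 5.20, oleate mean 4.48 log2) and Col1a2 (5.38 and 4.74) were below the filter and not tested. With 1 array left out at a time, 13 to 15 of the list were called.

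Matrix genes followed the same direction. Of 30 matrix glycoproteins and proteoglycans 24 were called higher and 0 lower, with a median of 1.10 log2 (0.87 without palmitate arrays 1 and 2). Ogn, or osteoglycin, read 7.17, 6.81, 6.62 and 6.996 on palmitate and 5.17, 5.01, 5.18 and 5.48 on oleate, a rise of 1.69 ± 0.15 log2 (adjusted p = 0.00169), and Mfap4, a microfibril glycoprotein of elastic fibres, rose by 2.13 ± 0.20 log2 (adjusted p = 0.00209). For both genes all 4 palmitate arrays lay above all oleate arrays by more than 1 log2. Dcn and Lum are on this list too. Of 20 collagens 13 were called higher and 2 lower, with a median of 0.85 log2 (0.61). Col14a1 rose by 2.00 ± 0.30 log2 (adjusted p = 0.00678), Col5a2 by 1.63 ± 0.21 (adjusted p = 0.00431), Col5a1 by 1.62 ± 0.25 (adjusted p = 0.00691) and Col1a1, already near the top of the scale on oleate at 11.67, 11.66, 11.81 and 11.81 log2, by 0.86 ± 0.10 (adjusted p = 0.00374). The 2 that fell, named here because they went the other way, were Col7a1 (−0.58 log2, adjusted p = 0.0209), the anchoring-fibril collagen made by keratinocytes, and Col2a1 (−0.69 log2, adjusted p = 0.0194), a cartilage collagen. The count of collagens called higher was 7 without palmitate array 2 or any 1 oleate array, against 13 with all arrays.

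Enzymes that process and cross-link collagen were called higher in 14 of 17 and lower in 0, with a median of 1.00 log2 (0.61 without palmitate arrays 1 and 2). Lox, which oxidises lysines of collagen and elastin, read 11.53, 11.34, 10.70 and 11.23 on palmitate and 9.23, 8.74, 9.23 and 9.77 on oleate and rose by 1.96 ± 0.25 log2 (adjusted p = 0.00442). Its relatives Loxl1 (2.10 ± 0.29 log2, adjusted p = 0.00564) and Loxl2 (1.75 ± 0.28 log2, adjusted p = 0.00833) and the procollagen C-proteinase enhancer Pcolce (2.05 ± 0.25 log2, adjusted p = 0.00376) rose with it. Matrix proteases and their inhibitors were called higher in 17 of 24 and lower in 0, with a median of 1.03 log2 (0.82). Both sides of proteolysis were among them, the gelatinase Mmp2 (1.29 ± 0.16 log2, adjusted p = 0.00394), the cathepsin Ctsl (0.62 ± 0.07, adjusted p = 0.00376), the aggrecanase Adamts5 (0.97 ± 0.12, adjusted p = 0.00401) and the inhibitor Timp2 (1.08 ± 0.11, adjusted p = 0.0023). Without oleate array 1, 2 or 4 the count of cross-linking genes was 9.

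Among mesenchymal transcription factors and related genes 14 of 21 were called higher, and Snai2, described above, was the 1 called lower. The median was 0.99 log2 (0.61 without palmitate arrays 1 and 2). Osr1, an odd-skipped factor of connective tissue, read 7.59, 7.67, 7.25 and 7.52 on palmitate and 6.24, 6.04, 6.45 and 6.24 on oleate and rose by 1.27 ± 0.12 log2 (adjusted p = 0.00209). Foxf1, a forkhead factor of mesenchyme, rose by 1.86 ± 0.23 log2 (adjusted p = 0.00376). Thus Prrx1, Osr1 and Foxf1 were higher on all 4 palmitate arrays than on any oleate array, and Snai2 was lower on all 4. In the TGF-beta and BMP list, 9 of 25 genes were called higher and 3 lower, and the median was 0.09 log2. The latent TGF-beta binding protein Ltbp2 read 9.99, 9.59, 8.84 and 9.16 on palmitate and 6.99, 6.48, 6.80 and 7.26 on oleate and rose by 2.51 ± 0.27 log2 (adjusted p = 0.00288). The matricellular TGF-beta target Ccn2 rose by 1.84 ± 0.22 log2 (adjusted p = 0.00376), the ligand Tgfb3 by 1.81 ± 0.23 log2 (adjusted p = 0.00453) and the co-receptor Tgfbr3 by 0.68 ± 0.09 log2 (adjusted p = 0.00534). The 3 that fell, outside the naming rule, were the TGF-beta and BMP inhibitor Smad7 (−0.46 log2, adjusted p = 0.0114), the BMP target Id1 (−0.39, adjusted p = 0.0105) and the ligand Bmp7 (−1.16, adjusted p = 0.034). Without palmitate array 1 or 2 or oleate array 1 the counts were 6 higher and 2 lower, and without oleate array 2, 3 or 4 they were 5 and 2.

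Macrophage and myeloid genes were called higher in 12 of 16 and lower in 0, with a median of 0.98 log2 (0.85 without palmitate arrays 1 and 2). The 3 chains of complement C1q, made by tissue macrophages, moved together. C1qc read 7.16, 6.77, 6.79 and 6.96 on palmitate and 5.27, 5.18, 5.37 and 5.43 on oleate, a rise of 1.61 ± 0.11 log2 (adjusted p = 0.00118), C1qb rose by 1.95 ± 0.28 log2 (adjusted p = 0.00579) and C1qa by 1.22 ± 0.15 log2 (adjusted p = 0.00372). C1qa and C1qb read at or below 5.24 log2 on every oleate array, near the level of the filter. Adgre1 (palmitate mean 4.98, oleate mean 4.56 log2) and Cd163 (3.93 and 3.75) were below the filter. The list mean was 6.76 to 7.28 log2 on palmitate and 5.60 to 6.13 on oleate, without overlap. The count was 5 without oleate array 2, 7 without oleate array 4 and 8 without oleate array 1 or 3 or palmitate array 2. Among neutrophil genes 2 of 8 were called higher and 0 lower, Mmp9 and the siderophore-binding Lcn2 (0.80 ± 0.10 log2, adjusted p = 0.00478), whereas S100a9 read 7.87, 8.16, 7.39 and 9.25 on palmitate and 7.28, 6.74, 7.76 and 7.07 on oleate, overlapping, with a difference of 0.96 ± 0.40 log2 that did not pass (adjusted p = 0.117). Without oleate array 1, 2 or 3 the neutrophil count was 1.

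Chemokines were called higher in 11 of 20 and lower in 0, with a median of 0.63 log2 (0.51 without palmitate arrays 1 and 2). Cxcl11, which had the largest fall of the 24 genes above, is a chemokine too but is not on this list. Ccl27a, a ligand of CCR10 on skin-homing lymphocytes, read 10.56, 10.35, 10.09 and 10.15 on palmitate and 8.97, 8.72, 8.71 and 8.70 on oleate and rose by 1.51 ± 0.11 log2 (adjusted p = 0.00129). Ccl6, a myeloid chemokine of rodents, rose by 2.21 ± 0.20 log2 (adjusted p = 0.00184), and Cxcl14 by 1.64 ± 0.17 log2 (adjusted p = 0.0023). For these 3, as for Cxcl12, all palmitate arrays lay above all oleate arrays. Of 16 cytokines 4 were called higher and 0 lower, and the median was −0.04 log2. They were Il6 (9.45, 9.63, 9.14 and 9.42 on palmitate and 8.12, 7.37, 7.65 and 7.73 on oleate, a rise of 1.69 ± 0.17 log2, adjusted p = 0.00235), its relatives Lif (1.17 ± 0.15 log2, adjusted p = 0.00488) and Il11 (1.96 ± 0.56 log2, adjusted p = 0.0433), and the macrophage growth factor Csf1 (0.26 ± 0.06 log2, adjusted p = 0.0295). Type I interferon response genes were called higher in 7 of 19 and lower in 0, with a median of 0.27 log2 (0.20), led by Ifit2 (1.22 ± 0.09 log2, adjusted p = 0.00129) and the nucleic acid sensor Zbp1 (0.87 ± 0.12 log2, adjusted p = 0.00607). In antigen presentation 4 of 12 were called higher and 1 lower. The MHC class II gene H2-Ab1 rose by 1.98 ± 0.34 log2 (adjusted p = 0.00968) and the invariant chain Cd74 by 1.10 ± 0.17 log2 (adjusted p = 0.00778). Without any 1 oleate array 2 cytokines and 4 interferon genes were called, and antigen presentation genes called higher were 2 without oleate array 1, 2 or 4 or palmitate array 1 or 2; 2 cytokines were called without palmitate array 2.

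Vessel genes were higher on palmitate, with more dependence on arrays 1 and 2. Of 20 endothelial genes 8 were called higher and 0 lower, and the median of 0.62 log2 was 0.21 log2 without palmitate arrays 1 and 2, with 8 again called. Egfl7, a secreted endothelial factor, read 10.70, 10.70, 10.14 and 10.33 on palmitate and 9.59, 9.56, 9.46 and 9.52 on oleate and rose by 0.94 ± 0.13 log2 (adjusted p = 0.00605). The endothelial receptor Tie1 rose by 0.73 ± 0.14 log2 (adjusted p = 0.0141), Ecscr by 0.82 ± 0.13 log2 (adjusted p = 0.00822) and VE-cadherin, Cdh5, by 0.65 ± 0.14 log2 (adjusted p = 0.0195). On this list oleate itself lay above control, with a mean level of 8.99 to 9.23 log2 against 8.15 to 8.72, and palmitate above both at 9.35 to 10.1. The count was 2 without oleate array 2, 3 or 4, 3 without oleate array 1, 4 without palmitate array 2 and 14 without palmitate array 4. Pericyte and smooth muscle genes were called higher in 4 of 11 and lower in 0, with a median of 0.36 log2 that was 0.05 log2 without palmitate arrays 1 and 2. The myosin light chain Myl9 (1.35 ± 0.15 log2, adjusted p = 0.00342) had the smallest p. Of 6 red blood cell genes 2 were called higher, and 1 without oleate array 1 or 2. Alas2, the first enzyme of erythroid haem synthesis, read 11.37, 11.41, 11.10 and 10.997 on palmitate and 9.55, 9.60, 9.47 and 9.29 on oleate, a rise of 1.74 ± 0.12 log2 (adjusted p = 0.00118), and alpha-globin Hba-a1 rose by 0.30 ± 0.06 log2 (adjusted p = 0.0143). No skeletal muscle (10 tested), adipocyte (7) or melanocyte (2) gene was called by limma.

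The medians of the epithelial lists were below 0, but few of their genes were called, and in the basal keratinocyte and junction lists palmitate arrays 1 and 2 lay far from arrays 3 and 4. The basal keratinocyte list had a median of −0.65 log2 over 13 genes, but −0.19 log2 without palmitate arrays 1 and 2. Against the oleate mean its median was −1.25 and −1.07 log2 on palmitate arrays 1 and 2 and −0.19 and −0.21 log2 on arrays 3 and 4. With all arrays 1 gene of 13, Krt15, was called lower, where 12% of all genes were. The basal keratins Krt5 (0.07 log2, adjusted p = 0.396) and Krt14 (−0.27 log2, adjusted p = 0.174) overlapped between the diets and were not called. The same was true of Col17a1 (−0.45 log2, adjusted p = 0.186). In 10 of 13 the palmitate arrays were lower without overlap, where 20.5% of all genes were, and 6 were called when arrays 1 and 2 were left out. The cytolinker Dst read 8.69, 9.07, 10.14 and 10.13 on palmitate and 10.57, 10.58, 10.55 and 10.48 on oleate and did not pass (adjusted p = 0.062), but did without arrays 1 and 2 (adjusted p = 0.00587). The junction and adhesion list had a median of −0.76 log2 over 18 genes, −0.19 log2 without arrays 1 and 2, and 15 of 18 lower without overlap (20.5% of all genes). Called lower were 2 of 18, the claudin Cldn7 (5.55, 5.66, 5.68 and 5.23 on palmitate, 6.31, 6.11, 6.14 and 6.27 on oleate, −0.68 log2, adjusted p = 0.00697) and the desmosomal cadherin Dsg2 (−1.01 log2, adjusted p = 0.0298). Without palmitate array 3 the counts were 9 basal keratinocyte and 11 junction genes, and without palmitate array 4 they were 10 and 13. The junction count was 1 without palmitate array 1 or 2 or any 1 oleate array.

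Differentiation genes of the epithelium fell in part. Of 25 cornified envelope genes 5 were called lower and 0 higher, with a median of −0.09 log2. The differences of 7, all late cornified envelope (Lce) genes, were above 0 and did not pass. The largest were those of Lce1f (1.32 log2, adjusted p = 0.196) and Lce1i (1.19 log2, adjusted p = 0.208). Without palmitate arrays 1 and 2, 4 of the list were called lower and 2 higher, Lce1i and Sprr2a1. The small proline-rich gene Sprr1a read 6.70, 6.43, 6.44 and 7.06 on palmitate and 8.08, 8.43, 8.42 and 8.20 on oleate and fell by 1.63 ± 0.15 log2 (adjusted p = 0.00184), with a difference of −1.53 log2 without arrays 1 and 2. The envelope scaffolds Evpl (−1.06 log2, adjusted p = 0.00946) and Ppl (−0.96 log2, adjusted p = 0.0269) fell, and so did Sprr1b (−1.07 log2, adjusted p = 0.0447) and Sprr2h (−1.01 log2, adjusted p = 0.0471). Of 17 barrier lipid and desquamation genes 5 were called lower and 0 higher, with a median of −0.48 log2 (−0.30). Beside Klk10 and Klk11 these were Ly6g6c (−1.38 log2, adjusted p = 0.0178), the epidermal ceramidase Acer1 (−1.43 log2, adjusted p = 0.0249) and the ceramide synthase Cers3 (−1.41 log2, adjusted p = 0.0284). The differences of 3 barrier genes were above 0 and did not pass. The largest were those of Smpd1 (0.47 log2, adjusted p = 0.0856) and Klk8 (0.43 log2, adjusted p = 0.117). Acer1 read 4.59, 4.51, 4.66 and 4.97 on palmitate and 6.31, 5.83, 5.33 and 7.01 on oleate; the palmitate arrays were all under the filter level and the oleate arrays ranged over more than 1 log2, under the control mean of 7.75 log2. Of 10 suprabasal and mucosal keratins Krt80 (−0.57 log2, adjusted p = 0.00693) and Krt10 (−0.60 log2, adjusted p = 0.015) were called lower. Krt6b read 7.72, 7.79, 10.68 and 10.91 on palmitate and 10.96, 10.93, 10.97 and 10.89 on oleate, so only palmitate arrays 1 and 2 stood low, and the difference of −1.66 log2 did not pass (adjusted p = 0.161). The cornified envelope count was 2 without palmitate array 2 or any 1 oleate array, 3 without palmitate array 1 and 8 without palmitate array 4. The barrier count was 1 without oleate array 1 or 2, 3 without oleate array 3 or 4 or palmitate array 1 or 2, and 10 without palmitate array 4. The keratin count was 1 without oleate array 4 and 4 without palmitate array 4.

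Nerve-related genes were called in both directions, in several lists at shares near the 11% higher and 12% lower of all genes. Of 11 Schwann cell and glial genes 2 were called higher and 4 lower, and the median was −0.06 log2. Scn7a, a sodium channel of non-myelinating Schwann cells, read 8.81, 8.85, 8.51 and 8.56 on palmitate and 7.17, 6.76, 7.49 and 7.22 on oleate and rose by 1.52 ± 0.15 log2 (adjusted p = 0.00211). The adhesion molecule Ncam1, of Schwann cells and neurons, rose by 1.60 ± 0.32 log2 (adjusted p = 0.0161). Sox2, which marks immature Schwann cells and basal epithelium, read 4.31, 4.51, 4.99 and 4.63 on palmitate and 5.83, 5.69, 5.64 and 5.93 on oleate and fell by 1.16 ± 0.14 log2 (adjusted p = 0.00376). All 4 palmitate values of Sox2 lie under the filter level of 5.19 log2, where the size of a difference is uncertain. L1cam fell by 0.51 ± 0.07 log2 (adjusted p = 0.00605), the GFRA3 ligand Artn by 0.57 ± 0.16 log2 (adjusted p = 0.0428) and the neuregulin receptor Erbb3, which epithelium also expresses, by 1.53 ± 0.45 log2 (adjusted p = 0.0469). Erbb3 read 7.04, 7.36, 8.79 and 9.001 on palmitate and 9.59, 9.59, 9.60 and 9.53 on oleate, the same split of palmitate arrays as in the keratinocyte lists, and its difference was −0.68 log2 without arrays 1 and 2. Sox10 did not pass (−0.03 log2, adjusted p = 0.817). Of 7 myelin genes Drp2 was called lower (−0.32 log2, adjusted p = 0.0442), and in none of the 8 fits that leave out 1 array. The count of Schwann cell genes called lower was 2 without palmitate array 1 or 2 or any 1 oleate array, and that of those called higher was 1 without oleate array 1, 2 or 3.

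Among 11 neuronal genes Gap43, a growth-associated protein of axons and repair Schwann cells, read 10.96, 10.95, 10.34 and 10.57 on palmitate and 9.73, 9.62, 9.43 and 9.96 on oleate and rose by 1.02 ± 0.18 log2 (adjusted p = 0.0103). The neuronal tubulin Tubb3 fell by 1.19 ± 0.27 log2 (adjusted p = 0.0224) and Map2 by 0.54 ± 0.16 log2 (adjusted p = 0.0451). Of 16 neurotrophic factors and receptors 2 were called higher and 2 lower, close to the 11% and 12% of all genes. Fgf7, the keratinocyte growth factor made by mesenchyme, read 9.15, 9.33, 8.94 and 9.05 on palmitate and 6.82, 6.52, 6.43 and 7.14 on oleate, with a rise of 2.39 ± 0.17 log2, 5.23-fold (adjusted p = 0.00118). Igf1 rose by 1.91 ± 0.15 log2 (adjusted p = 0.00133), whereas the BDNF receptor Ntrk2 fell by 0.99 ± 0.21 log2 (adjusted p = 0.0181) along with Artn. Both growth factors kept nearly the same size without palmitate arrays 1 and 2, at 2.26 and 1.89 log2. Axon guidance genes were called higher in 8 of 32 and lower in 5, with a median of 0.00 log2. The 5 that fell were Plxnb1 (−1.12 log2, adjusted p = 0.0406), Efnb1 (−0.63, adjusted p = 0.0181), Epha4 (−0.48, adjusted p = 0.0294), Sema4c (−0.44, adjusted p = 0.0437) and Plxnb2 (−0.40, adjusted p = 0.0221). The repellent Sema3a (8.62, 8.53, 7.68 and 7.78 on palmitate, 6.51, 6.22, 6.42 and 6.74 on oleate) rose by 1.68 ± 0.24 log2 (adjusted p = 0.00619), its co-receptor family member Nrp2 by 0.76 ± 0.11 log2 (adjusted p = 0.00623), and the netrins Ntn1 by 1.03 ± 0.15 (adjusted p = 0.00643) and Ntn4 by 0.81 ± 0.12 log2 (adjusted p = 0.00713). Without any 1 oleate array 5 guidance genes were called higher, and the count lower was 0 without oleate array 1, 3 or 4, 1 without oleate array 2 or palmitate array 2, and 8 without palmitate array 4. No neurotrophic gene was called lower by limma without any 1 oleate array or palmitate array 2, and neither Tubb3 nor Map2 without oleate array 1, 2 or 3.

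No galanin gene was called by limma. Gal read 6.43, 6.13, 6.06 and 6.21 on palmitate and 6.42, 5.99, 6.42 and 6.05 on oleate, overlapping, with a difference of −0.01 log2 (adjusted p = 0.965). Its receptors Galr1 (−0.05 log2, adjusted p = 0.637) and Galr3 (−0.09 log2, adjusted p = 0.364) read between 5.18 and 5.56 log2 on the 8 arrays, and Galr2 lay below the filter. Among the 10 neuropeptide genes tested, the opioid precursor Penk (7.44, 8.11, 7.39 and 7.24 on palmitate, 5.66, 5.85, 6.38 and 5.80 on oleate) rose by 1.62 ± 0.18 log2 (adjusted p = 0.00327) and the CGRP and adrenomedullin receptor Calcrl by 1.23 ± 0.23 log2 (adjusted p = 0.0135), while Calcb fell as described. Without oleate array 2 or 3 Calcrl was not called and the count higher was 1.

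Few genes that handle fatty acids were called. Among 20 uptake and lipid droplet genes 1 was called higher and 2 lower, with a median of −0.02 log2. Plin2, which coats lipid droplets, read 10.27, 10.26, 9.81 and 9.96 on palmitate and 9.44, 9.30, 9.33 and 9.45 on oleate and rose by 0.69 ± 0.12 log2 (adjusted p = 0.0102). The acyl-CoA synthetase Acsl3 read 7.73, 7.72, 7.74 and 7.72 on palmitate and 8.10, 8.06, 8.19 and 8.21 on oleate and fell by 0.41 ± 0.06 log2 (adjusted p = 0.00556); its palmitate arrays agreed within 0.03 log2. The fatty acid transporter Slc27a1 fell by 0.51 ± 0.12 log2 (adjusted p = 0.0242). The counts for this list were 4 higher and 4 lower without palmitate array 3, 3 and 3 without palmitate array 4, and 1 and 1 without any 1 oleate array. Mouse Cd36, the fatty acid receptor of the host cells, read 6.02, 5.42, 5.29 and 5.07 on palmitate, 5.86, 6.16, 5.998 and 5.87 on oleate and 5.04, 5.35, 4.99 and 5.22 on control arrays. It did not pass with all arrays (−0.52 ± 0.20 log2, adjusted p = 0.0896), and palmitate array 1 lay inside the oleate range. Without palmitate arrays 1 and 2 the difference was −0.79 log2 (adjusted p = 0.0049). The oleate arrays were the highest of the 3 diets by their mean, 0.82 log2 above control (adjusted p = 0.0817), which did not pass.

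Of 20 oxidation and PPAR target genes 1 was called higher and 3 lower. Angptl4, a PPAR-induced inhibitor of lipoprotein lipase, read 10.23, 10.27, 10.24 and 10.25 on palmitate and 8.99, 9.17, 9.34 and 8.99 on oleate and rose by 1.12 ± 0.09 log2 (adjusted p = 0.00148), and by 1.12 log2 without arrays 1 and 2. Its control arrays, at 9.79, 9.60, 9.69 and 9.69, lay between the diets without touching either. Pdk4, the pyruvate dehydrogenase kinase, fell by 0.72 ± 0.21 log2 (adjusted p = 0.0447), but palmitate array 4 read 6.01 log2 inside the oleate range and the fall did not pass without arrays 1 and 2 (adjusted p = 0.155). The beta-oxidation enzyme Hadh (−0.59 log2, adjusted p = 0.03) and the receptor Ppard (−0.24 log2, adjusted p = 0.0301) fell. Of 18 synthesis and desaturation genes Acly (0.36 ± 0.09 log2, adjusted p = 0.0276) and Fads3 (0.81 ± 0.24 log2, adjusted p = 0.0473) were called higher, and neither passed without arrays 1 and 2 (adjusted p = 0.0536 and 0.0519). The delta-9 desaturase Scd1, which turns palmitate and stearate into monounsaturated fatty acids, read 8.78, 8.42, 7.24 and 7.09 on palmitate and 7.57, 7.59, 7.91 and 7.85 on oleate. Palmitate arrays 1 and 2 lay above all oleate arrays and arrays 3 and 4 below them, so the difference was 0.16 ± 0.39 log2 (adjusted p = 0.798) with all arrays and −0.56 log2 (adjusted p = 0.00269) without arrays 1 and 2, opposite in sign. Sterol synthesis genes were called lower in 5 of 17 and higher in 1, with a median of −0.16 log2, and −0.29 log2 with 9 lower without palmitate arrays 1 and 2. Those that fell were Sc5d (−0.78 log2, adjusted p = 0.0128), Dhcr7 (−0.47, adjusted p = 0.0145), Ebp (−0.85, adjusted p = 0.0181), Fdft1 (−0.31, adjusted p = 0.0185) and Idi1 (−0.58, adjusted p = 0.0288), enzymes of the pathway, and the one that rose was its feedback regulator Insig1 (0.82 ± 0.24 log2, adjusted p = 0.0488). The count of those lower was 1 without oleate array 2, 3 or 4 and 3 without oleate array 1. No oxidation or PPAR target was called lower by limma without palmitate array 1 or 2 or any 1 oleate array, and no synthesis gene higher in those fits.

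Many cell cycle and mitochondrial genes fell on palmitate, by small amounts. Of 27 cell cycle genes 12 were called lower and 0 higher, with a median of −0.29 log2 and −0.32 log2 without palmitate arrays 1 and 2. The topoisomerase Top2a read 7.43, 7.43, 7.51 and 7.64 on palmitate and 8.09, 8.27, 8.30 and 8.31 on oleate and fell by 0.74 ± 0.08 log2 (adjusted p = 0.00304). The anaphase activator Cdc20 fell by 0.67 ± 0.08 log2 (adjusted p = 0.00316), the mitotic kinase Aurkb by 0.51 ± 0.06 log2 (adjusted p = 0.00376) and the replication helicase subunit Mcm4 by 0.75 ± 0.10 log2 (adjusted p = 0.00542). Unlike in the keratinocyte lists, the 4 palmitate arrays lay close together, and the list mean was 8.45 to 8.62 log2 on palmitate against 8.82 to 8.89 on oleate and 8.84 to 8.92 on control. The count was 5 without oleate array 2, 6 without oleate array 3 and 7 without oleate array 1 or 4. Of 29 oxidative phosphorylation genes 13 were called lower and 0 higher, with a median of −0.21 log2 (−0.19 without palmitate arrays 1 and 2). Ndufb5 of complex I read 9.21, 9.20, 9.21 and 9.25 on palmitate and 9.50, 9.58, 9.58 and 9.54 on oleate and fell by 0.33 ± 0.06 log2 (adjusted p = 0.00894), and Sdha of complex II fell by 0.32 ± 0.06 log2 (adjusted p = 0.0143). The count was 1 without oleate array 1 or 3, 2 without oleate array 2 or 4 and 3 without palmitate array 2. Of 25 hypoxia and glycolysis genes 2 were called higher and 2 lower, not above the 11% and 12% of all genes. Slc16a3 (0.75 ± 0.19 log2, adjusted p = 0.0325) and Vegfa (0.82 ± 0.24, adjusted p = 0.0483) were higher. Slc2a1 (−0.38, adjusted p = 0.0467) and Tpi1 (−0.34, adjusted p = 0.048) were lower. None of these hypoxia and glycolysis genes was called by limma without palmitate array 1 or 2 or any 1 oleate array. In the unfolded protein list of 21, Asns was called lower (−0.56 log2, adjusted p = 0.0222), in the immediate early and heat shock list of 24, Klf2 was called higher (0.66 ± 0.09 log2, adjusted p = 0.00572), and of 20 ribosomal protein genes none was called by limma. Asns was not called without palmitate array 2 or any 1 oleate array. Without palmitate array 3 or 4, 3 unfolded protein genes were called higher, and 5 and 4 immediate early genes lower.

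The control diet arrays of the same experiment show on which side each diet lay. In the fit of all 12 arrays, palmitate differed from control in 5475 genes (42.7%), 2366 higher (18.5%) and 3109 lower (24.2%), and oleate differed from control in 51 genes (0.398%), 16 higher (0.125%) and 35 lower (0.273%). Both comparisons share the control arrays and a residual spread pooled over all diets. The median SD of a gene was 0.152 log2 on palmitate, 0.0851 log2 on oleate and 0.0971 log2 on control arrays. The wider palmitate spread thus enters oleate against control, and the count of 51 does not measure how alike oleate and control are. Sema5a, for example, read 8.98 to 9.16 log2 on oleate and 9.66 to 9.77 on control and was not called by limma (adjusted p = 0.47). Over the 1410 genes called higher on palmitate than on oleate, the median difference from control was 0.81 log2 for palmitate and 0.02 log2 for oleate. Over the 1533 called lower it was −0.49 log2 for palmitate and −0.02 log2 for oleate. Some groups lay on both sides of control: the fibroblast list had a median of 0.95 log2 for palmitate over control and −0.33 log2 for oleate over control, and the cross-linking list 1.01 and −0.21 log2. The endothelial list, at 1.33 and 0.68 log2, and the barrier list, at −1.34 and −0.59 log2, lay on the same side for both diets.

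Arrays of the other experiments give the direction of palmitate against control in tumours that share no array with the comparison. SCC25, another human oral carcinoma line, and the second VDH15 experiment each have 3 palmitate and 3 control arrays of non-targeting tumours, again 1 biological replicate a side, and no oleate. On palmitate against control, 2384 genes were called in SCC25 (18.6%), 1255 higher (9.79%) and 1129 lower (8.8%), and 248 in the second VDH15 experiment (1.93%), 155 higher (1.21%) and 93 lower (0.725%). Of the 1410 genes called higher on palmitate than on oleate, 1204 (85.4%) were higher over control in SCC25, 1131 (80.2%) in the second VDH15 experiment and 1049 (74.4%) in both, where 41.3%, 48.0% and 29.2% of all genes tested were. Of the 1533 called lower, 811 (52.9%) were lower in both, where 39.8% of all genes were. Among the 425 higher by more than 1 log2, 385 (90.6%) were higher in both, and among the 142 lower by that much 97 (68.3%) were lower in both. Of the 12 largest rises, all above 0 in both experiments, Prrx1 had the largest SCC25 difference. It was 1.99 log2 higher in SCC25 (adjusted p = 4.84e-07) and 1.27 in the second VDH15 experiment (adjusted p = 0.0617). Aldh1a2 was 0.26 and 0.59 log2 higher (adjusted p = 0.269 and 0.149) and Mmp9 0.21 and 0.10 (adjusted p = 0.656 and 0.932). Of the 12 largest falls, Calcb, S100a3, Krt15, Depdc7, Slc39a2 and Snai2 were above 0 in SCC25, and Zfp280b in the second VDH15 experiment, none of them called.

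Not every group kept its direction there. The fibroblast list had medians of 1.66 log2 in SCC25 and 0.84 log2 in the second VDH15 experiment, and the collagen list 1.92 and 0.96 log2, where it was 0.85 log2 against oleate. The macrophage list had 0.10 and 0.42 log2, where it was 0.98 log2 against oleate. The cell cycle list had medians of 0.07 and 0.17 log2, and the basal keratinocyte list 0.02 and 0.08 log2. Snai2 was 0.20 log2 in SCC25 (adjusted p = 0.0647) and −0.20 log2 in the second VDH15 experiment (adjusted p = 0.574), and Top2a 0.04 and 0.06 log2 (adjusted p = 0.804 and 0.747). Sprr1a was −2.91 and −1.26 log2 (adjusted p = 1.65e-07 and 0.245). Whether these effects differ between experiments was not tested, since the reference diet differs as well.

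**Figure D5:**
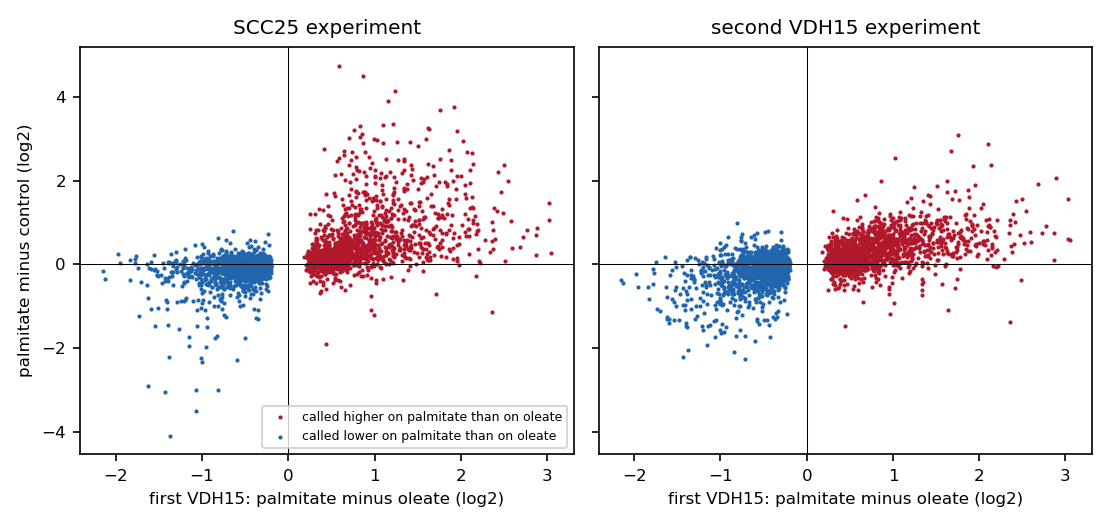
Palmitate minus control (log2) in the SCC25 experiment (left) and the second VDH15 experiment (right) against palmitate minus oleate in the first VDH15 experiment (log2), for the 1410 genes called higher (red) and the 1533 called lower (blue) on palmitate than on oleate, 1 point per gene. Red points lie mostly above 0 in both panels, 85.4% in SCC25 and 80.2% in the second VDH15 experiment, while blue points scatter closer to 0.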

How the data were processed

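RNA of the labelled neural stromal fraction was hybridised to Affymetrix mouse arrays, and 8 of the 36 arrays enter the main comparison, grouped by title and diet label. The authors deposited 1 table of log2 intensities, background-corrected, normalised and summarised by RMA (affy), as the submitters' processing notes name them (per the labels; versions not given in the sources used here). The deposited log2 values appear to have had hybridisation batch, scan batch and cell line removed: with diet and shRNA in the model, the batch coefficients were below 1e-06 in 100% of 45141 probe sets. The 8 arrays share a hybridisation batch and a cell line, and the scan batch term of the main fit is counted in its residual degrees of freedom (5). In fits without that term, an adjustment made before deposit leaves the residual degrees of freedom too high, which makes p-values too small.

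Of the probe sets, 28898 carry 1 gene in the platform annotation, 551 several and 15692 none, and 28689 of them matched a gene identifier. Each of 17097 genes was read through its probe set with the highest mean, and the lowest 25% (below 5.19 log2) were left out, leaving 12823. limma 3.58.1 (lmFit, eBayes) in R 4.3.3 fitted diet and scan batch on the 8 arrays, and a gene was called at a Benjamini-Hochberg adjusted p under 0.05. On simulated data, the fit of palmitate over oleate recovered 90% of 1 log2 and 98% of 2 log2 changes among 12823 genes, with 7 unchanged genes among 195 calls. The simulated errors were normal and independent between genes and arrays, with a single SD per gene for both diets. They held neither the split nor the wider spread of the palmitate arrays, so these rates do not carry over to the real calls.

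Named genes are the 12 largest rises and 12 largest falls among called genes without overlap (clone-like names left out), up to 4 members per list with the smallest p, and Cd36, Gal, its receptors and Scd1; Col2a1, Col7a1, Smad7, Id1, Bmp7, Sprr2h, Cers3, Idi1, Insig1, Erbb3, Sox10, Sema3c, Sema5a, Tgfbi, Sprr2a1, the 5 genes called on averages and the markers below the filter were named after their values were seen. The same holds for Lce1f, Lce1i, Smpd1, Klk8, Krt5, Krt14, Col17a1, Plxnb1, Efnb1, Epha4, Sema4c and Plxnb2. The comparison, the lists and the tests were chosen with earlier results of these data known. Array numbers 1 to 4 did not pair the diets, as deviations of same-numbered arrays correlated at −0.0961, 0.00572, −0.106 and −0.0107 across genes. Alternatives covered the batch term, the array set, the filter, probe set choice, scaling, moderation and left-out arrays.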

Additional observations from a re-analysis of the deposited data

Results flagged for a closer look

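A single array stood apart from the other 3 of its diet, by the gap to its nearest neighbour over the range of the 4 (Dixon's test), in 11 of 352 groups of 4 tested over the named genes and list members reported; chance gives such a gap in about 5% of groups. In log2 levels, palmitate array 1 was low for Ly6g6c (5.07, others 5.62 to 5.73), Tubb3 (5.29, others 6.20 to 6.36) and Sdha (9.92, others 10.05 to 10.06). Palmitate array 2 was low for Adamts5 (8.92, others 9.17 to 9.20), palmitate array 3 for Cxcl5 (9.53, others 10.28 to 10.33), and palmitate array 4 was high for Pdk4 (6.01, others 5.13 to 5.21). Oleate array 1 was high for Ccl27a (8.97, others 8.70 to 8.72) and low for Top2a (8.09, others 8.27 to 8.31). Oleate array 2 was low for Xbp1 (9.17, others 9.21), and oleate array 3 was low for Hspb1 (12.49, others 12.53) and Nrp2 (9.59, others 9.72 to 9.73). The gaps of Xbp1 and Hspb1 are under 0.05 log2.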

How the results depend on the processing

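With all 8 arrays 1410 genes were called higher and 1533 lower on palmitate than on oleate. Within scan batch 2 alone the counts were 0 and 0, and within scan batch 3 alone 0 and 0 (limma, 2 arrays a diet). In the fit of all 12 arrays of the experiment 2472 genes were called lower, and in that of all 36 arrays 2422 were called higher and 3142 lower, with more residual degrees of freedom. On averages of the 11 groups, where palmitate drew on all experiments, 5 were called higher and 0 lower. Leaving out 1 array gave 541 to 1817 higher and 385 to 2168 lower; every fit without an oleate array gave fewer of both than any fit without a palmitate array, and the cause was not tested. With the replicate block in place of the scan batch term, 1393 were called higher and 1455 lower, of which 1266 and 1287 were called in both fits; array numbers do not pair the diets.

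Without a scan term, without palmitate arrays 1 and 2, with no level filter, with the lowest 50% of genes left out, on the mean of probe sets, after quantile scaling or median centring and with a trended, robust prior, both counts lay within 1.5 times of these. No called result changed sign in the alternatives run on the named genes and lists. Over all called genes, 2 called higher and 2 called lower changed sign on averages of the 11 groups, and 6 called lower did on the mean of probe sets. Among list members not called with all arrays, Scd1 (−0.56 log2), Sema3c (0.31), Sema5a (0.34), Tgfbi (0.24) and Sprr2a1 (0.66) changed sign and passed without palmitate arrays 1 and 2. Over all results and alternatives, 46 list medians moved by more than the spread between palmitate arrays and 834 did not, 669 gene results lost their call, 128 gained one and 17, of genes not called with all arrays, changed sign. Of the 24 largest changes, all kept their call in these alternatives, except Kdf1, Calcb and Slc39a2 with no level filter, and in the fits of 12 and 36 arrays. Depth in reads does not apply; genes under the level filter of 5.19 log2 were not tested.

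There is 1 biological replicate a diet, so no p-value measures differences between mice. Palmitate arrays 1 and 2 stood apart from arrays 3 and 4 in both scan batches, and the labels do not say what the arrays of a diet share. The values appear to have had batch terms removed before deposit.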
